A study of Mus musculus with 6 samples.

Results

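The Bcl2 family decides whether the outer membrane of the mitochondrion stays closed. Here 10 of its genes were followed in αTC1 cells treated with G786-1089, taken to be the study's SMNDC1 inhibitor. They were chosen by name, out of 55487 genes in the deposited tables, as pro-survival genes (Bcl2, Bcl2l1, Bcl2l2, Mcl1), effectors (Bax, Bak1) and BH3-only genes (Bcl2l11, Bid, Bad, Pmaip1). αTC1 is a mouse glucagonoma line, a tumour model of the pancreatic α cell, and SMNDC1 is a splicing factor that reads methylated arginines through its Tudor domain. The 6 libraries came from cells treated with G786-1089 (n = 3) or with its solvent DMSO (n = 3), and differ in no other stated respect. The labels give no dose and no duration, and do not say whether replicates were separate cultures. Columns of the tables carry the letters A, B and C, which name the libraries here, since the labels number replicates without letters. All 6 columns are also headed WT, read here as wild-type cells.

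Apoptosis through the mitochondrion is set by binding between these proteins. Effectors form pores that release cytochrome c, pro-survival members hold effectors and BH3-only proteins in a groove, and BH3-only proteins carry stress signals by filling that groove or by activating effectors. Several members are also textbook cases of alternative splicing: the long form of Bcl2l1 protects cells and a short form promotes death, and Mcl1 and Bcl2l11 have isoforms that differ in the same way or in potency. The deposited values are sums per gene, so isoform shares were not analysed here.

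The feature that the members share is the BH3 motif, the helix that enters the groove. The stretches coding for 9 residues of it, on the GRCm38 build, were read from GENCODE vM21 coding transcripts for 9 members. They are shown to place the genes whose levels follow. Pmaip1 was left out by choice, so it is not part of the comparison below. Capitals mark the codon of the conserved leucine (methionine in Bcl2l2) and the codons of the conserved small residue and aspartate. Each stretch lies within a single exon, and each is written 5′ to 3′ on the coding strand.
Bad, chr19:6950792-6950818, plus strand: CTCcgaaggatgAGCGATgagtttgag
Bcl2l11, chr2:128147150-128147176, plus strand: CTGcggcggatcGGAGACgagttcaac
Bid, chr6:120897289-120897315, minus strand: CTCgcccaaataGGCGATgagatggac
Bax, chr7:45465997-45466023, minus strand: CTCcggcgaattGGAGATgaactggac
Bak1, chr17:27022531-27022557, minus strand: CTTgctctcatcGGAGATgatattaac
Bcl2, chr1:106712575-106712601, minus strand: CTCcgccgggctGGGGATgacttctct
Bcl2l1, chr2:152829697-152829723, minus strand: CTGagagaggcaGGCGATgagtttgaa
Bcl2l2, chr14:54884517-54884543, plus strand: ATGcgggctgctGGAGACgagtttgag
Mcl1, chr3:95659436-95659462, plus strand: CTGcggcgcgtgGGCGACggcgtgcag
Any pair of these stretches had between 11 and 19 identical bases of 27. Of the members shown, Bad was the one whose small residue is a serine codon, where the others have glycine. In Bcl2l11 the stretch was present in 4 of 5 coding transcripts in Bcl2l2 in 2 of 3 and in Bad in 6 of 6, so the counts of Bcl2l11 and Bcl2l2 can include transcripts without it.

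Library totals were 70150880, 94747943 and 79198429 counts with G786-1089 and 59070705 to 69480568 with DMSO, so every treated library was deeper. Glucagon (Gcg) was abundant in all libraries, at 2832 to 3603 CPM (counts relative to the corrected library size) with G786-1089 and 20242 to 22881 CPM with DMSO, and fell by 2.76 on the log2 scale (SE 0.10, edgeR adjusted p = 0.000102). Smndc1, whose protein the study's inhibitor targets, gave a log2 fold change of 0.84 (SE 0.67, edgeR adjusted p = 0.481). Of 7 α cell markers 6 were tested and 3 called, all lower (2 when libraries were scaled by size alone). Of the islet hormones of other cells, Ins1, Sst and Ppy were at 0 in every library, and Ins2 was low, at 0.802, 1.4 and 0.0231 CPM with G786-1089 and 0, 0.277 and 0.773 CPM with DMSO. Of 6 β cell markers 2 were tested and 0 called in either direction (summed 4.82 to 11 CPM with G786-1089, 9.02 to 15.4 CPM with DMSO). The 2 δ cell markers were at 0 throughout. Of 3 leukocyte markers 1 was tested and 0 were called (8.05 to 19.5 against 5.78 to 8.55 CPM), and 0 of 3 endothelial markers were tested (0 to 2.14 against 0 to 1.4 CPM). Of 3 fibroblast markers Col1a2 was tested, and it was lower with G786-1089 (summed 0 to 0.254 against 1.18 to 4.91 CPM), while Col3a1 was at 0. Depth and Col1a2 moved with the treatment, and their part in the results below was not tested. In such bulk libraries, fewer cells of a type and less RNA per cell cannot be told apart.

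Levels between genes were compared per length, as the deposited FPKM (fragments per kilobase of exons, scaled between libraries by the authors). In DMSO the effector Bax stood highest, at 191, 185 and 164 FPKM in libraries A, B and C. Bcl2l1, which codes for Bcl-xL, followed at 63.2, 61.1 and 38.3 FPKM, and Bad, which binds Bcl-xL and Bcl2, at 38.5, 41.4 and 26.5 FPKM. Within every library Bcl2l1 lay above Bad and Bax above both, though the ranges of Bcl2l1 and Bad over the libraries overlapped. Bcl2l11, which codes for Bim, ranged from 2.91 to 4.35 FPKM and Bid, which caspase 8 cleaves, from 1.42 to 3.85 FPKM. Mcl1 (0.541 to 1.63 FPKM) and Bcl2 (0.518 to 0.963 FPKM) came next, and from Bcl2l11 to Bcl2 each neighbour in this order overlapped the next one. Within each library Bid lay above Mcl1 and Mcl1 above Bcl2, while the order of Bcl2l11 and Bid varied. Bcl2l2, which codes for Bcl-w, stood at 0.0415 to 0.44 FPKM, below every value of Bcl2.

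With G786-1089 the order was the same for the 4 most abundant genes, and here the range of each lay apart from the next: Bax 156 to 184, Bcl2l1 59 to 83.6, Bad 17 to 21.4 and Bcl2l11 5.02 to 7.79 FPKM. Mcl1 (1.26 to 2.05 FPKM) then preceded Bid (1.01 to 1.45 FPKM), with overlapping ranges, though Mcl1 lay above Bid within each library. Bcl2 (0.332 to 0.567 FPKM) and Bcl2l2 (0.204 to 0.524 FPKM) overlapped as well.

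**Figure D1:**
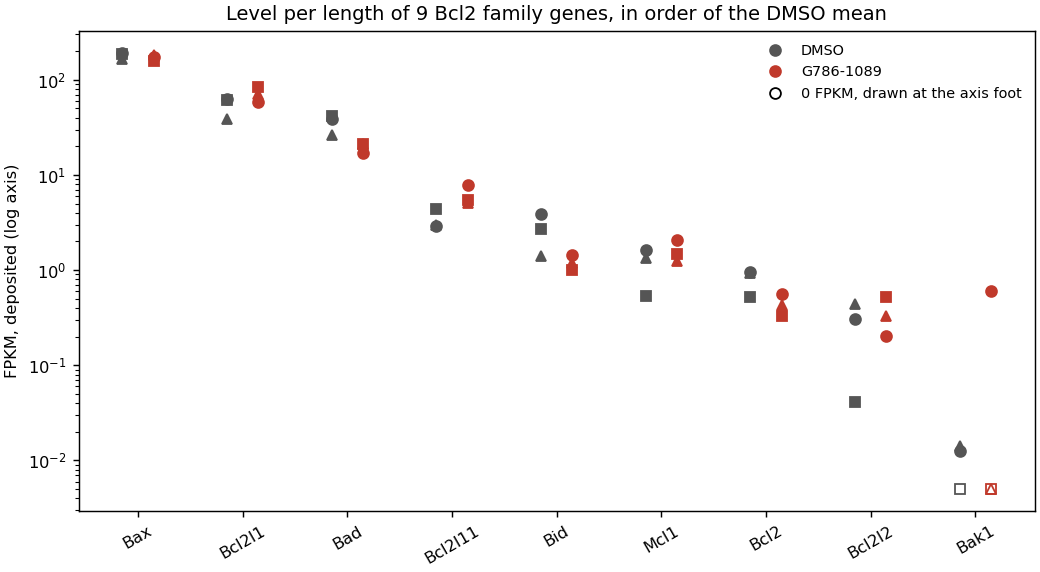
Deposited FPKM (y axis, log scale) of 9 members (x axis, ordered by the DMSO mean) in each library, with circles for A, squares for B and triangles for C. Bax lay above 150 FPKM in all 6 libraries, Bcl2l1 and Bad lay between 17 and 83.6 FPKM, and Bak1 was at 0 in 3 libraries.

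For the comparison of treatments, counts were divided by library size corrected with TMM factors, giving CPM, and tested with edgeR across 15082 genes, a gene being called at an adjusted p under 0.05. Of the 10 members 8 had enough counts to be tested. Bad was the 1 member called, and it was lower, against 14.8% of all tested genes called in either direction. Lower calls made up 7.8% of all genes and higher calls 6.98%, and 0 members were called higher. The study filtered splicing events by cut-offs on DESeq2 results (adjusted p up to 0.1, log2 fold change of 1 or more in either direction). With these cut-offs applied to the edgeR fit, 10.4% of the genes passed and 0 members. These shares do not set the members apart from the genes at large. The groups did not overlap in CPM for 2 of 8 members, Bad and Bcl2l11, against 36.7% of all tested genes. The median log2 fold change was 0.16 over the tested members, with 4 above and 4 below 0, and 0.04 over all tested genes.

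Among the BH3-only genes, Bad codes for a sensor of growth factor and nutrient signals, whose phosphorylated form is held in the cytosol, and which in β cells also binds glucokinase. Bad stood at 44.6, 54.8 and 56 CPM with G786-1089 and at 100.4, 108 and 68.9 CPM with DMSO. Every treated library lay below every DMSO library, with DMSO C the nearest to them. The mean was 51.8 ± 6.27 CPM with G786-1089 and 92.4 ± 20.7 CPM with DMSO (SD, n = 3), and Bad fell by 0.84 on the log2 scale (SE 0.20, 95% interval -1.31 to -0.36, edgeR adjusted p = 0.0369).

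The call for Bad was near its threshold. It was lost without any one of G786-1089 A, B or C or DMSO A or B (edgeR adjusted p from 0.0838 to 0.117), and without DMSO C the log2 fold change was -1.01 (edgeR adjusted p = 0.0243). It was also lost with library size in place of TMM factors (log2 fold change -0.63, edgeR adjusted p = 0.0902), where the median of all genes moved from 0.04 to 0.25, and with the column letters as a replicate block (-0.82, edgeR adjusted p = 0.093). The direction was lower in all 14 alternatives.

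**Figure D2:**
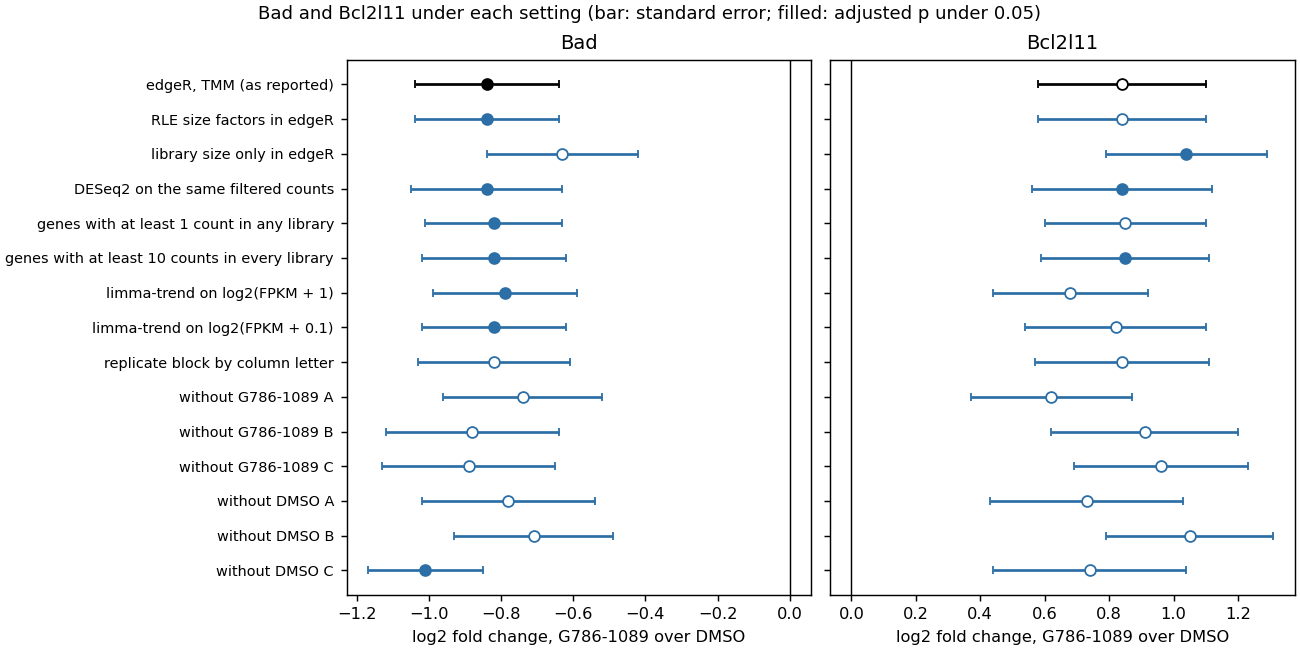
Log2 fold change of Bad (left) and Bcl2l11 (right) on the x axes, with the standard error, under the fit as reported and each alternative (y axis), filled where the adjusted p was under 0.05. Bad stayed below 0 and Bcl2l11 above 0 in every setting, between -1.01 and -0.63 and between 0.62 and 1.05, while the calls came and went.

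Bad shares exons with a neighbour that moved the same way. On GRCm38 it lies at chr19:6941861-6951899 on the plus strand, and 517 of its 2393 exon bases (21.6%) also belong to Gpr137, which codes for a membrane protein and is transcribed from the other strand. The libraries did not keep strand, so reads from these bases cannot be assigned to either gene. The Union mode named in the study's methods leaves out an alignment that hits several features, and the deposited sums do not show how many such reads there were. Gpr137 stood at 11.4, 10.9 and 14 CPM with G786-1089 and at 36.6, 29.6 and 32.1 CPM with DMSO, and fell by 1.44 on the log2 scale (SE 0.21, edgeR adjusted p = 0.00599). If such reads were counted for Bad and the Gpr137 reads lay evenly over its 2780 exon bases, the shared ones would hold 3.71% to 8.66% of the CPM of Bad. Without them Bad would stand at 42.5, 52.7 and 53.4 CPM with G786-1089 and at 93.6, 102 and 62.9 CPM with DMSO, still without overlap, and the difference of the mean log2 CPM would be -0.78 in place of -0.82. That calculation takes the counts of Gpr137 as complete and free of reads from Bad. Neither was checked, so 3.71% to 8.66% and -0.78 do not bound the share of such reads. It was added after the values were seen, and the true split of these reads was not tested.

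Bcl2l11, chr2:128126038-128162547 on the plus strand, codes for Bim, a strong activator of Bax that binds every pro-survival member. It stood at 58.8, 41 and 37.9 CPM with G786-1089 and at 21.8, 32.7 and 22.4 CPM with DMSO. Here every treated library lay above every DMSO library, with 37.9 and 32.7 CPM the closest pair. The means were 45.9 ± 11.3 CPM with G786-1089 and 25.7 ± 6.11 CPM with DMSO (SD, n = 3). The log2 fold change of 0.84 (SE 0.26, 95% interval 0.23 to 1.45) did not pass after adjustment (edgeR adjusted p = 0.0767). DESeq2 called it (adjusted p = 0.012), as did edgeR with library size only (adjusted p = 0.0362) and edgeR after a filter of 10 counts in each of the libraries (adjusted p = 0.0471). None of its exons overlapped another gene.

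Bid, whose truncated form carries death receptor signals to the mitochondrion, stood at 3.48, 2.41 and 2.84 CPM with G786-1089 and at 9.17, 6.46 and 3.39 CPM with DMSO. The groups overlapped at one end, where DMSO C fell between treated libraries. Its log2 fold change of -1.13 (SE 0.48, 95% interval -2.28 to 0.03) did not pass (edgeR adjusted p = 0.189), on 184 to 558 counts per library. Pmaip1, the p53 target known as Noxa, which binds Mcl1, was at 0 counts in every library, below a floor of 3 counts or 0.03 to 0.0552 CPM.

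**Figure D3:**
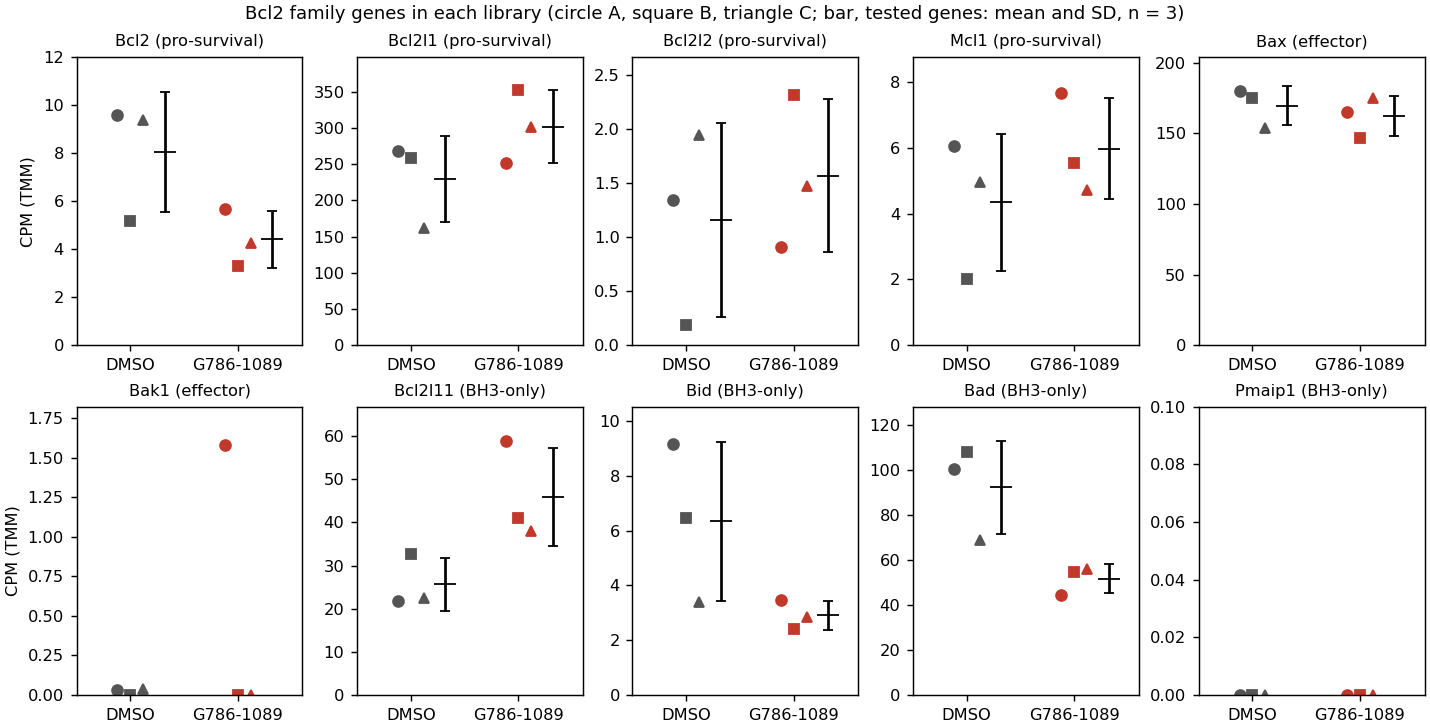
CPM (y axis, from 0, a scale for each gene) of the 10 members in the DMSO and G786-1089 libraries, with points for libraries and bars for the mean and SD of tested genes. Bad lay lower and Bcl2l11 higher in every treated library, the groups of the other 6 tested genes overlapped, and Pmaip1 was at 0.

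Of the pro-survival genes, Bcl2l1 stood at 251, 352 and 302 CPM with G786-1089 and at 268, 259 and 162 CPM with DMSO. The groups overlapped, as treated library A lay between the DMSO values. Its log2 fold change was 0.40 (SE 0.22, 95% interval -0.12 to 0.91, edgeR adjusted p = 0.296), so neither no change nor a log2 difference of 0.91 lay outside the interval. Without DMSO C, its lowest library, the value was 0.19. Bcl2, which codes for the founding member of the family, stood at 5.68, 3.30 and 4.27 CPM with G786-1089 and at 9.60, 5.17 and 9.38 CPM with DMSO. DMSO B lay below treated library A, and the log2 fold change of -0.87 (SE 0.42, 95% interval -1.86 to 0.12) did not pass (edgeR adjusted p = 0.233).

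Mcl1, a short-lived protein that many cells depend on, stood at 7.67, 5.53 and 4.70 CPM with G786-1089 and at 6.05, 2.02 and 4.95 CPM with DMSO. DMSO B was low, with 131 counts against 269 and 368, and the groups overlapped (log2 fold change 0.46, SE 0.51, edgeR adjusted p = 0.629). Without DMSO B the value was 0.11. Bcl2l2 stood at 0.909, 2.32 and 1.48 CPM with G786-1089 and at 1.35, 0.185 and 1.95 CPM with DMSO. Its 95% interval ran from -1.74 to 2.60 on the log2 scale (edgeR adjusted p = 0.812), and at 12 to 232 counts per library neither direction was detectable. DMSO B was again the lowest library, and without it the log2 fold change of 0.43 turned to -0.08.

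Of the effectors, Bax, which moves from the cytosol into the mitochondrial membrane when activated, was the most even member, at 165, 147 and 175 CPM with G786-1089 and at 180.3, 175 and 154 CPM with DMSO. The groups overlapped through most of their range. The log2 fold change of -0.07 (SE 0.11, edgeR adjusted p = 0.754) had a 95% interval of -0.33 to 0.19, and its sign turned with library size only (0.14). Bak1, which sits in the membrane before activation, had 118, 0 and 0 counts with G786-1089 and 2, 0 and 2 counts with DMSO. It was not tested, and a single treated library held nearly all of its counts. Its exons overlap those of Ggnbp1 over 256 bases, and the counts of both could not be told apart there.

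Of the other genes over members' exons, Gm45808 over Bax, Gm20521 over Bcl2l2 and D630008O14Rik over Bcl2 had 0 counts in every library. Bid has no shared exon in the basic annotation, the kind used for counting, while the full transcript set of GENCODE vM21 puts 629 bases of it in common with its neighbour Bcl2l13 (5001 counts over the 6 libraries). The study's methods name the Union mode of counting on transcripts, which leaves out an alignment that hits several features, and the reads so lost from a member were not measured. No member had a near-identical copy at another locus (at least 100 bases at 95% identity).

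By class, summed FPKM is dominated by single genes. Bcl2l1 gave 93.4% to 98.2% of the pro-survival sum and Bax 99.7% or more of the effector sum in all libraries. The pro-survival sum was 61.8, 85.9 and 73.1 FPKM with G786-1089 and 66.1, 62.2 and 41 FPKM with DMSO, with overlap (log2 ratio 0.40, or 0.19 without DMSO C), and the effector sum was 156 to 184 against 164 to 191 FPKM. The BH3-only sum was 26.3, 27.6 and 27.6 FPKM with G786-1089 and 45.3, 48.4 and 30.9 FPKM with DMSO, which did not overlap. It followed Bad, which gave 85.1% to 85.7% of the sum in DMSO and 64.8% to 77.5% with G786-1089. Without Bad the log2 ratio of the sum was 0.27 in place of -0.59. Summed as CPM, which is not per length, the log2 ratio was -0.28 and the groups overlapped, with DMSO C below every treated library.

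Ratios between members do not depend on how libraries are scaled. These were chosen after the values were seen and are given without a test. BH3-only over pro-survival FPKM was 0.425, 0.321 and 0.377 with G786-1089 and 0.685, 0.778 and 0.754 with DMSO, so each treated library lay well below each DMSO library. The mean was 0.374 ± 0.0516 with G786-1089 and 0.739 ± 0.0481 with DMSO (SD, n = 3). As Bad and Bcl2l1 dominate the sums, this ratio mostly sets these genes against each other, and Bcl2l1 was not called. Bcl2l11 over Bad was 0.458, 0.26 and 0.235 with G786-1089 and 0.0755, 0.105 and 0.113 with DMSO. The makeup of the sum over the BH3-only members thus differed between treatments, from 6.43% to 9.67% Bcl2l11 in DMSO to 18.2% to 29.7% with G786-1089. BH3-only genes that are not members, such as Bbc3 (mean 2.01 FPKM with G786-1089 and 0.65 FPKM with DMSO), were not in these sums.

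**Figure D4:**
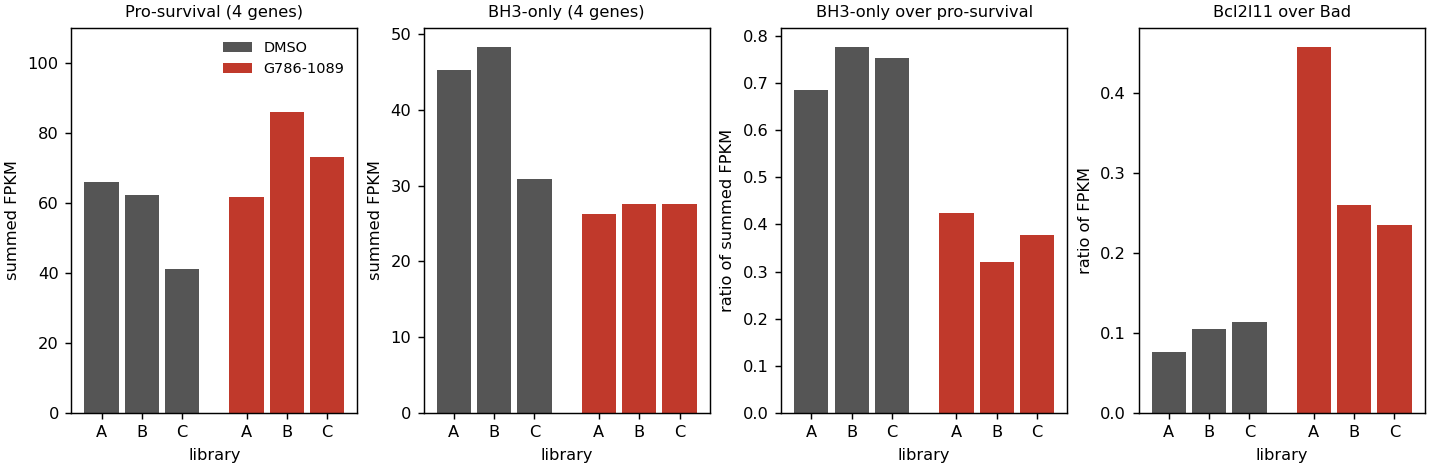
Summed FPKM of the pro-survival and BH3-only genes and 2 ratios of FPKM (y axes, from 0), with a bar for each library A, B and C (x axis) of each treatment. In FPKM the BH3-only sum and its ratio to the pro-survival sum were lower in all 3 treated libraries, and the ratio of Bcl2l11 to Bad was higher. Summed as CPM, the BH3-only groups overlapped.

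The genes most like Bad in log2 CPM over the 6 libraries, among 7899 genes whose log2 CPM averaged 3 or more, were Gm8894 (Pearson r = 0.9962), Gm9625 (r = 0.9913) and Hacd3 (r = 0.9895). Hacd3, a dehydratase of very long chain fatty acid synthesis, fell by 0.69 (SE 0.18, edgeR adjusted p = 0.045), while Gm8894 (-0.54, edgeR adjusted p = 0.136) and Gm9625 (-0.14, edgeR adjusted p = 0.232) did not pass. The points share library and depth, and the correlation is a description.

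Around the family, 12 lists of 96 genes by role held 79 tested genes, of which 14 were higher and 15 lower. That is 36.7%, beside 14.8% of all tested genes, but the lists were chosen with earlier results of these data known, so the share is no independent evidence about the family. When libraries were scaled by size alone, the direction of every gene named from them stayed, but the call of Tomm22 was lost (edgeR adjusted p = 0.158). Medians given from here on are of the log2 fold change. Among the other BH3-only genes, 1 of 4 was tested and 0 were called. Bbc3, the p53 target known as Puma, stood at 4.39, 4.22 and 3.33 CPM with G786-1089 and at 0.855, 1.08 and 1.91 CPM with DMSO (log2 fold change 1.63, edgeR adjusted p = 0.0932), and Bik and Hrk were at 0 in every library. Of 9 other multidomain homologs 1 was tested and 0 were called. It was Bcl2l13, a mitophagy receptor next to Bid (log2 fold change 0.08, edgeR adjusted p = 0.946).

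All 4 genes of a list that share the Bnip name (Bnip3, Bnip3l, Bnip1 and Bnip2), and not 1 protein family, were tested and called. Of these, 3 were higher and 1 lower (median log2 fold change 1.07, against 0.04 for all genes). Bnip3, a mitophagy receptor with a weak BH3 motif, rose from 31, 26.6 and 38.6 CPM with DMSO to 485, 430.5 and 371 CPM with G786-1089. The groups lay far apart (log2 fold change 3.74, SE 0.18, edgeR adjusted p = 0.000128), the largest change of this list. Bnip1, a vesicle fusion protein of the endoplasmic reticulum, rose by 1.54 (edgeR adjusted p = 0.0256), and Bnip2 fell by 0.86 (edgeR adjusted p = 0.0209).

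Downstream of the pore, 7 of 7 apoptosome and caspase genes were tested, 1 higher and 1 lower (median 0.11). Cycs, the cytochrome c that Bax and Bak release, fell by 0.70 (SE 0.05, edgeR adjusted p = 0.000568), from between 2314 and 2386 CPM with DMSO to between 1394 and 1537 CPM with G786-1089. Casp2, an initiator caspase, rose by 1.54 (edgeR adjusted p = 0.0128). Of 5 inhibitors of caspases 4 were tested, 0 higher and 1 lower (median -0.16, or 0.04 with library size only), namely Birc5, or survivin, a mitotic protein as well, which fell by 0.93 (SE 0.08, edgeR adjusted p = 0.000799). Both antagonists of these inhibitors were tested and 0 were called, with Htra2 at -0.28 (edgeR adjusted p = 0.61; list median -0.22, or -0.01 with library size only).

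In the death receptor pathway, 6 of 8 genes were tested, 2 higher and 0 lower (median 0.30). Fas, the receptor for Fas ligand, stood at 6.87, 3.63 and 2.26 CPM with G786-1089 and at 0, 0 and 0.0736 CPM with DMSO. It was detected in every treated library and nearly absent from DMSO (edgeR adjusted p = 0.0236), so no fold is given. Ripk1, the kinase that links death receptors to survival or necroptosis, rose by 0.97 (SE 0.20, edgeR adjusted p = 0.0227).

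Of 9 partners in the outer mitochondrial membrane all were tested, 1 higher and 2 lower (median -0.18), or 2 higher and 1 lower with library size only (median 0.02). The fission factor Fis1 fell by 0.86 (edgeR adjusted p = 0.00244), the import receptor Tomm22 fell by 0.46 (edgeR adjusted p = 0.0378), and the channel Vdac1 rose by 0.39 (edgeR adjusted p = 0.0136). Of 7 genes for turnover of the Mcl1 protein 6 were tested, 1 higher and 0 lower (median 0.16), or 2 higher with library size only (median 0.37). The gene called with TMM factors was Fbxw7, a ubiquitin ligase subunit that binds phosphorylated Mcl1, at 6.47, 13.5 and 10.5 CPM with G786-1089 and 0.526, 1.20 and 2.76 CPM with DMSO (log2 fold change 2.76, SE 0.69, edgeR adjusted p = 0.0408).

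All 12 kinases and adaptors that act on the Bad or Bim protein were tested, 2 higher and 5 lower (median -0.25), or 3 higher and 5 lower with library size only (median -0.04). Pim3, a kinase that phosphorylates Bad, rose from between 29.6 and 40.8 CPM with DMSO to between 131 and 150.1 CPM with G786-1089 (log2 fold change 2.06, SE 0.17, edgeR adjusted p = 0.000754). Ywhaz and Ywhab, adaptors that hold phosphorylated Bad in the cytosol among many other clients, fell by 1.27 (edgeR adjusted p = 0.000279) and by 0.87 (edgeR adjusted p = 0.00304). These are transcript levels, and phosphorylation of Bad was not measured.

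Of 13 transcription factors known to act on members 11 were tested, 4 higher and 0 lower (median 0.54), or 6 higher with library size only (median 0.74). Ddit3, or CHOP, the endoplasmic reticulum stress factor that acts on Bcl2l11 and Bbc3, rose from 22.5, 18.3 and 16.8 CPM with DMSO to 263, 286 and 332 CPM with G786-1089 (log2 fold change 3.94, SE 0.16, edgeR adjusted p = 0.000102). Foxo3, a factor that acts on Bcl2l11 and Bbc3 when growth signals are low, rose by 2.93 (SE 0.46, edgeR adjusted p = 0.00806), and Rela, a subunit of NF-κB, rose by 0.54 (edgeR adjusted p = 0.027). The table holds a second, weaker row named Ddit3, which was not used.

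Of 16 splicing regulators of Bcl2l1, Mcl1 or Bcl2l11 all were tested, 0 higher and 5 lower (median -0.10), or 3 higher and 4 lower with library size only (median 0.11). Hnrnpk fell by 0.79 (SE 0.07, edgeR adjusted p = 0.000917), Hnrnpa1 fell by 1.13 (edgeR adjusted p = 0.00122) and Hnrnph1 fell by 1.43 (edgeR adjusted p = 0.00459). These RNA-binding proteins shape exon choice in many transcripts, and Hnrnph1 acts on the choice between the long and short forms of Bcl2l1. Isoforms of the members were not measured in these sums.

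**Figure D5:**
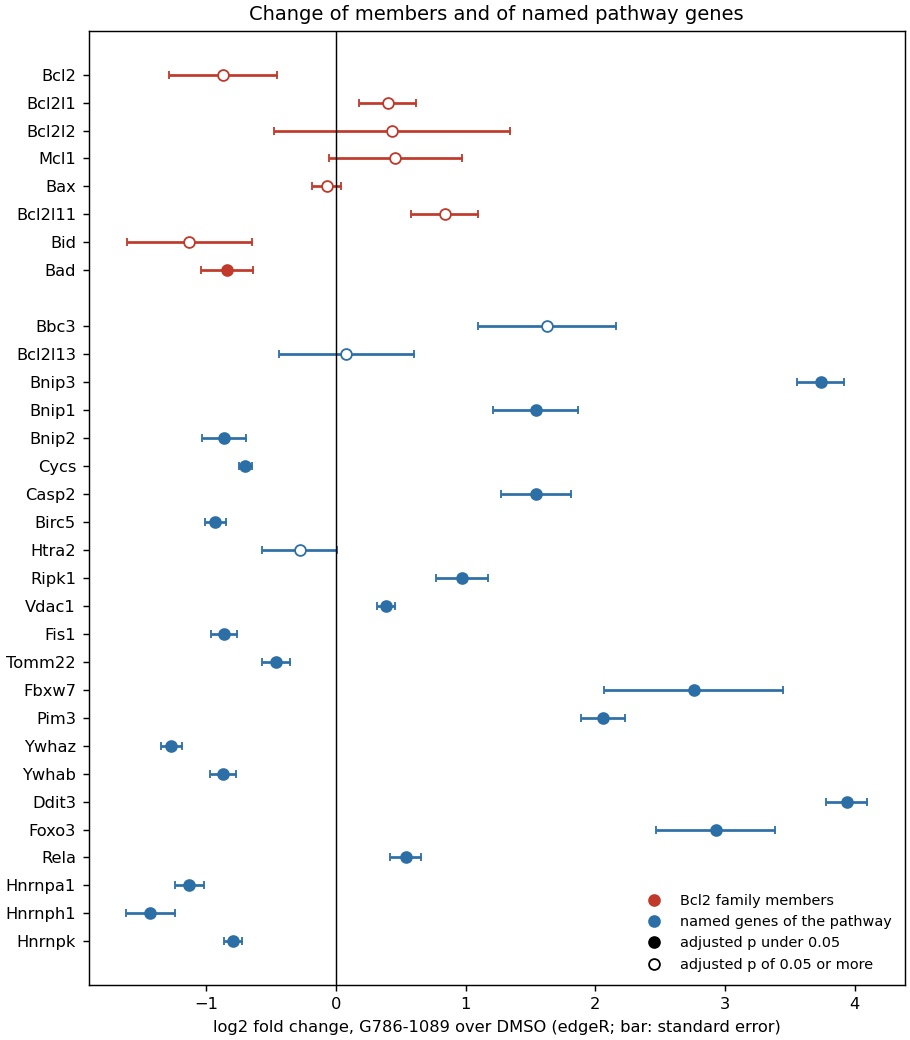
Log2 fold change of G786-1089 over DMSO (x axis) with its standard error for the 8 tested members and for named genes of the lists (y axis), filled where the edgeR adjusted p was under 0.05. Of the members Bad was filled, at -0.84, while of the list genes drawn Bnip3 and Ddit3 lay beyond 3 on the higher side. Fas, higher with G786-1089 and nearly absent from DMSO, was left out of the plot.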

How the data were processed

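RNA from αTC1 cells was sequenced by Smart-seq2 in 6 libraries (3 G786-1089, 3 DMSO). The labels do not describe the replicates. For cell culture in general, the study says that one batch of cells was divided between treatments within a replicate, and that a replicate was handled together. So p-values measure the spread between these libraries, whose differences may be technical. The authors deposited counts per gene, made with STAR 2.7.9a on GRCm38 and counted in Union mode without regard to strand, and FPKM made from these counts. Of counts from 1 to 10, 78.1% were even, for a reason not tested, so low counts may not be counts of separate fragments. G786-1089 was taken to be the inhibitor for which the study describes sequencing, which the labels do not state. The study calls that inhibitor non-selective and reports effects on SMN as well.

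Treatments were compared on counts with edgeR 4.0.16 in R 4.3.3 (filterByExpr minimum count 10 and total 15, TMM, quasi-likelihood test, Benjamini-Hochberg over 15082 genes). Intervals are 95% intervals of the edgeR fit. An exact permutation test of 3 against 3 cannot go below p = 0.1. The floor of 3 counts covers counting error only. The alternatives were RLE or library size factors, DESeq2 1.42.0, 2 count filters, limma 3.58.1 on log2(FPKM + 1 or 0.1) with a mean FPKM of at least 1, a block by column letter and each library left out. FPKM was proportional to count over union exon length for 9 of 9 members with values. Copies were sought with blastn 2.17.0. edgeR was tested on simulated data.

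Genes named are the members, genes over their exons, up to 3 called genes of each list by smallest p (else 1), Smndc1, Gcg and the 3 genes most correlated with Bad. Others, such as markers at 0, were named after their values were seen. Members and lists were chosen with earlier results of these data known.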

Additional observations from a re-analysis of the deposited data

How the results depend on the processing

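Over all genes, 2230 were called (1053 higher, 1177 lower), against 3669 with DESeq2, 1232 with the replicate block by column letter and 1253 to 1556 with a library left out. With library size only, 1630 were higher and 796 lower. The same letters in both treatments did not deviate together (correlations 0.015, 0.003 and 0.025), by which the letters would not pair the libraries. The study processed a replicate's samples together, but whether a letter stands for a replicate is not stated, so fits with and without the block are given. The number of members called was 1 (Bad), against 2 (Bad and Bcl2l11) with DESeq2 or with at least 10 counts in every library. It was 0 with the block, 0 by the study's cut-offs on the edgeR fit and 0 to 1 with a library left out. With library size only it was 1, Bcl2l11. Bad had a log2 fold change of -0.63 with library size only and -0.82 with the block, and from -1.01 to -0.71 with a library left out, with adjusted p (edgeR, DESeq2 or limma) from 0.000726 to 0.117 over 14 alternatives. Bcl2l11 had 1.04 with library size only, 0.84 with DESeq2 and 0.85 with at least 10 counts in every library, each called, and 0.62 to 1.05 with a library left out, none called (edgeR adjusted p from 0.0683 to 0.211). The sign of Bax turned with library size only (0.14) and without G786-1089 B (0.00), and that of Bcl2l2 without DMSO B (-0.08). With a library left out, Bax ranged from -0.14 to 0.00, Bcl2l2 from -0.08 to 1.03, Bcl2l1 from 0.19 to 0.52, Mcl1 from 0.11 to 0.77 and the pro-survival sum from 0.19 to 0.53 (0.40 as reported). The BH3-only sum had a log2 ratio of -0.28 in CPM and 0.27 without Bad, its most abundant gene, against -0.59 in FPKM. The effector sum without Bax could not be given, since Bak1 was near 0. The block changed no other member's call. Apart from the constructions named (fewer libraries or genes, Bad left out), the cause of these changes was not tested.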
